A study of Mus musculus with 6 samples.

Results

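The aminoacyl-tRNA synthetases described here are 36 of the 28836 genes in the deposited expression table. They were taken by gene symbol: 20 synthetases of the cytosol, and 16 of mitochondria whose symbols end in 2. All 36 were found, all passed the filter on low counts, and all carried the aminoacyl-tRNA biosynthesis pathway term in the table, which 44 genes carried. The cells were RAW264.7, a mouse macrophage-like line from a virus-induced leukemia, in 2 groups of 3 libraries. The untreated group received no GB2. The GB2-treated group received GB2, a prodrug that joins MSA-2, a compound that activates the DNA-sensing adaptor STING, to artesunate, used in the study against the macrophage receptor TREM2. The study describes sequencing of such macrophages after a stated dose and time of GB2, from the lower chamber of a transwell culture with tumour cells above. The labels repeat neither the dose, the time nor the culture, and which tumour line stood above these libraries is not given in the sources used here. Both groups are the same immortal line, so they model macrophages only as far as that line does. The study calls its replicates biological, but the labels do not name separate cultures, so a p-value here reflects how far these libraries spread.

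A synthetase joins an amino acid to its tRNA, the step that makes the genetic code readable by the ribosome. Cells keep separate nuclear genes for the enzymes that serve cytosolic ribosomes and for those imported to serve the mitochondrial ribosome, which makes core subunits of the respiratory chain. Gars (glycine) and Kars (lysine) supply both compartments from 1 gene, and mitochondria charge glutamine tRNA through a transamidase rather than a synthetase of their own. Many cytosolic synthetase genes are known targets of ATF4, the transcription factor of the integrated stress response, which also drives genes of amino acid synthesis and uptake. Such genes often carry a CARE-type element, bound by ATF4 together with C/EBP proteins, near the start site.

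The 250 bases before and 50 bases after the RefSeq start sites (GRCm38.p6) were searched for TGATGNAA, the core of that element, on both strands. Windows were found for 13 of the 20 cytosolic and 14 of the 16 mitochondrial genes. The motif was in 5 of the 13 cytosolic windows (38.5%), against 1219 of 27025 genes with a window (4.51%). It was in 0 of the 14 mitochondrial windows, which says only that these letters do not occur there. The 5 cytosolic genes were Aars (alanine), Gars (glycine), Iars (isoleucine), Tars (threonine) and Yars (tyrosine), and all 5 belong to the 12 synthetases commonly given as ATF4 targets, 8 of which had a window (62.5%). None of the 5 windows of the other cytosolic synthetases held it. Cars and Nars, which had the largest rises after Dars, had no window, and the window of Dars held no match.

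The stretches with a match are shown because their 5 genes were all higher after GB2, as were 17 of the 20 cytosolic genes. That of Mars2 is shown because Mars2 fell most and had no match. The log2 changes of the genes with a match were 0.51 (Aars), 0.49 (Gars), 0.18 (Tars), 0.17 (Iars) and 0.15 (Yars). Those of cytosolic genes whose window held no match ranged from -0.32 (Qars) to 0.88 (Dars). A link between the motif and the change was not tested. Capitals mark each match, which reads TTNCATCA where it lies on the opposite strand. The stretch of Aars is chr8:111033592-111033861 on the plus strand, that of Gars chr6:55037931-55037992 on the plus strand and that of Iars chr13:49682097-49682154 on the plus strand. The stretch of Tars is chr15:11399652-11399713 on the minus strand, that of Yars chr4:129189866-129189927 on the plus strand and that of Mars2 chr1:55236927-55237176 on the plus strand. Aars had 2 matches, whose leftmost bases lie 112 bases before the RefSeq start site and at base 10 after it. The others begin 30 bases before the start site in Gars, 15 before it in Tars, at base 8 after it in Iars and at base 4 after it in Yars. The start site differed from the deposited gene start by 698 bases for Aars and 143 for Yars.
Aars: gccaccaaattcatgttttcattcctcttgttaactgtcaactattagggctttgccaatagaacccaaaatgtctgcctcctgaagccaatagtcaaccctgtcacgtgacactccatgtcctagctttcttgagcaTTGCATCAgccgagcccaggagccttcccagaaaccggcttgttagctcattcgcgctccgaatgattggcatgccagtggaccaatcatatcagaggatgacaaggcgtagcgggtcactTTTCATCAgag
Gars: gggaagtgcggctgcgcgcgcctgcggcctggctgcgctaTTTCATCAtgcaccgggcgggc
Iars: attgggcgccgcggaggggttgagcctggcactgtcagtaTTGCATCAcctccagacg
Tars: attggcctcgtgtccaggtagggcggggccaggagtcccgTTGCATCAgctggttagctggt
Yars: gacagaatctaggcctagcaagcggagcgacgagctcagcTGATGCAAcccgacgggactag
Mars2: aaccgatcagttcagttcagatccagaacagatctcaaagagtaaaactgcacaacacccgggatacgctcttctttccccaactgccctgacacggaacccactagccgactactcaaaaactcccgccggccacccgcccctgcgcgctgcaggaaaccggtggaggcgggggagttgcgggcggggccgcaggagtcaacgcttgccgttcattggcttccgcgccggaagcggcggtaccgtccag

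The libraries held 62660734 to 77337345 estimated counts. Genes that mark macrophages were all above 1 FPKM in untreated cells (10 of 10), and their summed level was 15801 to 16291 FPKM untreated and 7918 to 9146 FPKM after GB2. Lyz2 made up 12760 to 13344 FPKM of that sum untreated and 6070 to 7062 FPKM after GB2. Of the 10 genes, 1 was higher (Itgam, log2 0.38), 6 were lower and 3 were not called (Fcgr1, Ptprc and Cd14). All 10 exceeded 10 FPKM in untreated cells, and of all genes of at least that level 24.1% were called higher and 49.9% lower. The part of these markers in the results below was not tested. GB2-treated replicates 2 and 3 carried transcripts that mark other cell types. The 10 hepatocyte genes summed to 577 and 558 FPKM there, against 6.30 FPKM in GB2-treated replicate 1 and 2.11 to 2.74 FPKM in untreated cells, where 4 of the 10 were at 0. Epithelial genes (8 listed) summed to 54.9 and 62.0 FPKM in those libraries and to 1.07 to 1.72 FPKM in the other 4, and muscle genes (6 listed) to 65.3 and 100.4 FPKM against at most 0.19 FPKM. Results are therefore also given with GB2-treated replicate 1 alone, which is assumed to vary as the untreated libraries do. In bulk RNA, a change in the cells present and a change in RNA per cell cannot be told apart.

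The 2 classes sat at different levels in untreated cells. In FPKM, a level corrected for gene length and for library depth, the cytosolic genes ranged from 11.4 for Farsa, the alpha subunit of the phenylalanine enzyme, to 119.6 for Sars, the serine enzyme, with a median of 32.2. The mitochondrial genes ranged from 1.31 for Mars2 (methionine) to 11.8 for Lars2 (leucine), with a median of 2.55. Only Lars2 among the mitochondrial genes was above the lowest cytosolic gene. Sars stood at 119.5, 119.3 and 120.0 FPKM in the untreated libraries and at 145.8, 132.6 and 137.7 FPKM after GB2. Summed over the class, the cytosolic level was 862, 865 and 862 FPKM untreated and 1109, 1050 and 1075 FPKM after GB2, a rise of 24.9% with no overlap. The mitochondrial sum was 70.2, 67.4 and 69.3 FPKM untreated and 62.8, 84.4 and 58.7 FPKM after GB2, so its groups overlapped. The high value belongs to the library in which Lars2 stood apart, as given further on. Without Lars2 the sum was 57.2 ± 1.01 FPKM (SD, n = 3) untreated and 49.4 ± 2.33 FPKM after GB2, a change of -13.7% and with no overlap.

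**Figure D1:**
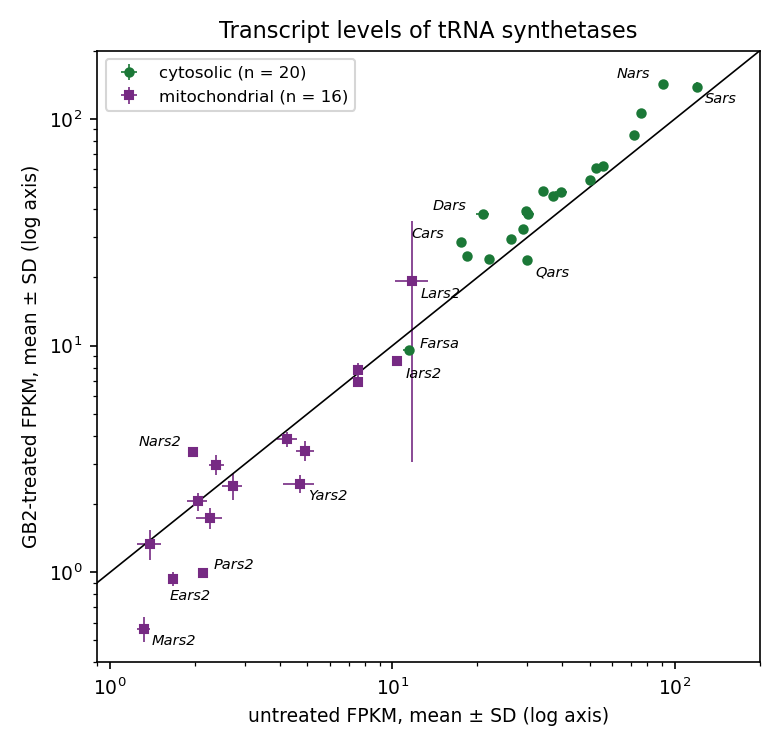
Mean FPKM of each synthetase in untreated (horizontal) and GB2-treated libraries (vertical), both on log axes, with SD over 3 libraries each and the line of equal level. Most cytosolic genes (green) lie above the line, Qars and Farsa below it, and the mitochondrial genes (purple) sit lower and on both sides, with a long error bar for Lars2.

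Cytosolic synthetases were higher after GB2 by small margins. By edgeR's quasi-likelihood test over 17124 genes with Benjamini-Hochberg adjustment (FDR), 17 of the 20 rose, 2 fell and 1 was not called at FDR below 0.05. That is 85.0% higher, where the same rule called 26.8% of all genes tested higher and 29.6% lower. Among the 4277 genes of at least 10 FPKM in untreated cells, a level that every cytosolic member exceeds, it called 24.1% higher and 49.9% lower. The median log2 change of the class was 0.27, that of all genes 0.01 and that of genes of at least 10 FPKM -0.18. At the study's thresholds, which also ask for a 2-fold change, edgeR called 0 of the 20 in either direction, and so did DESeq2 and limma, against 13.4% of all genes higher and 7.73% lower. At an unadjusted p below 0.05, 18 were higher and 2 lower. The FPKM of the groups did not overlap for all 20, with 18 higher and 2 lower after GB2, where 27.4% of all genes were apart and higher and 34.5% apart and lower.

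The largest rise belonged to Dars (chromosome 1, 128363707 to 128417359, minus strand, mm10), which charges aspartate. It stood at 19.7, 21.4 and 21.7 FPKM in untreated cells and at 39.7, 37.0 and 37.0 FPKM after GB2. Every treated library was above every untreated library, a log2 change of 0.88 ± 0.05 (SE, 1.83-fold, FDR 7.7e-06). Cars, the cysteine enzyme, was at 18.0, 17.6 and 16.9 FPKM untreated and 28.5, 27.9 and 29.2 FPKM treated, a rise of 1.65-fold (log2 0.72 ± 0.04, FDR 4.7e-06). Nars, the asparagine enzyme and in untreated cells the most abundant member after Sars, went from 89.5, 91.1 and 91.0 FPKM to 148, 137 and 142 FPKM. Its groups lay far apart, at 1.59-fold (log2 0.67 ± 0.04, FDR 7.2e-06).

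Aars, the alanine enzyme, was at 34.1, 34.6 and 33.9 FPKM untreated and at 49.4, 47.2 and 47.9 FPKM after GB2, a rise of 1.43-fold (FDR 2.3e-05). Gars, which serves cytosol and mitochondria, was at 77.7, 77.3 and 73.2 FPKM and then at 109, 105 and 103 FPKM, 1.41-fold higher (FDR 9.2e-05). The motif stretches of both are printed above, and in both the libraries within a group differed by far less than the groups. Eprs, a fused enzyme for glutamate and proline, was at 18.0, 18.1 and 19.0 FPKM and then at 24.1, 24.9 and 25.3 FPKM (1.36-fold, FDR 4.3e-05). Hars, the histidine enzyme, was at 30.2, 29.5 and 29.6 FPKM and then at 39.8, 39.0 and 38.5 FPKM (1.33-fold, FDR 7.4e-05). These 7 were the members that rose by at least 1.3-fold.

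Another 10 cytosolic members rose by 1.11-fold to 1.28-fold. The highest of them were Vars, the valine enzyme, at 31.9, 30.1 and 28.9 FPKM untreated and 38.8, 38.2 and 37.8 FPKM treated (log2 0.35 ± 0.05, FDR 0.00067), and Lars. Lars charges leucine and has been described as a leucine sensor for the growth kinase mTORC1. It was at 37.3, 35.9 and 38.2 FPKM untreated and 47.0, 44.5 and 46.4 FPKM treated (log2 0.33 ± 0.04, FDR 0.00026). Sars, for which the values are given above, had a log2 change of 0.23 ± 0.04 (FDR 0.0030). The log2 changes of Mars1, Rars, Wars, Kars, Tars, Iars and Yars, named in falling order, lay between 0.28 and 0.15. Yars, the tyrosine enzyme, was the weakest call (FDR 0.029): it was not called when any 1 library was left out, at FDR 0.053 to 0.16. Farsb, the beta subunit of the phenylalanine enzyme, had a log2 change of 0.12 ± 0.05 and was not called (FDR 0.068), though DESeq2 called it (FDR 0.043).

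Only Qars and Farsa fell among the 20 cytosolic synthetases listed. Tarsl2, a threonyl synthetase-like gene outside that list, also fell (log2 -0.65) and is given further on. Qars, the glutamine enzyme, was at 30.5, 30.1 and 29.6 FPKM untreated and at 24.8, 23.1 and 23.5 FPKM after GB2 (log2 -0.32 ± 0.04, FDR 0.00052). Farsa was at 11.8, 11.7 and 10.8 FPKM untreated and at 9.63, 9.12 and 9.90 FPKM treated (log2 -0.24 ± 0.05, FDR 0.0044). In both, every treated library was below every untreated library. With GB2-treated replicate 1 alone, Qars was still called, at a smaller log2 change of -0.19, and Farsa was not (log2 -0.17, FDR 0.13). The 2 subunits of the phenylalanine enzyme, Farsa and Farsb, thus had log2 changes of opposite sign, of which only that of Farsa passed the test.

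**Figure D2:**
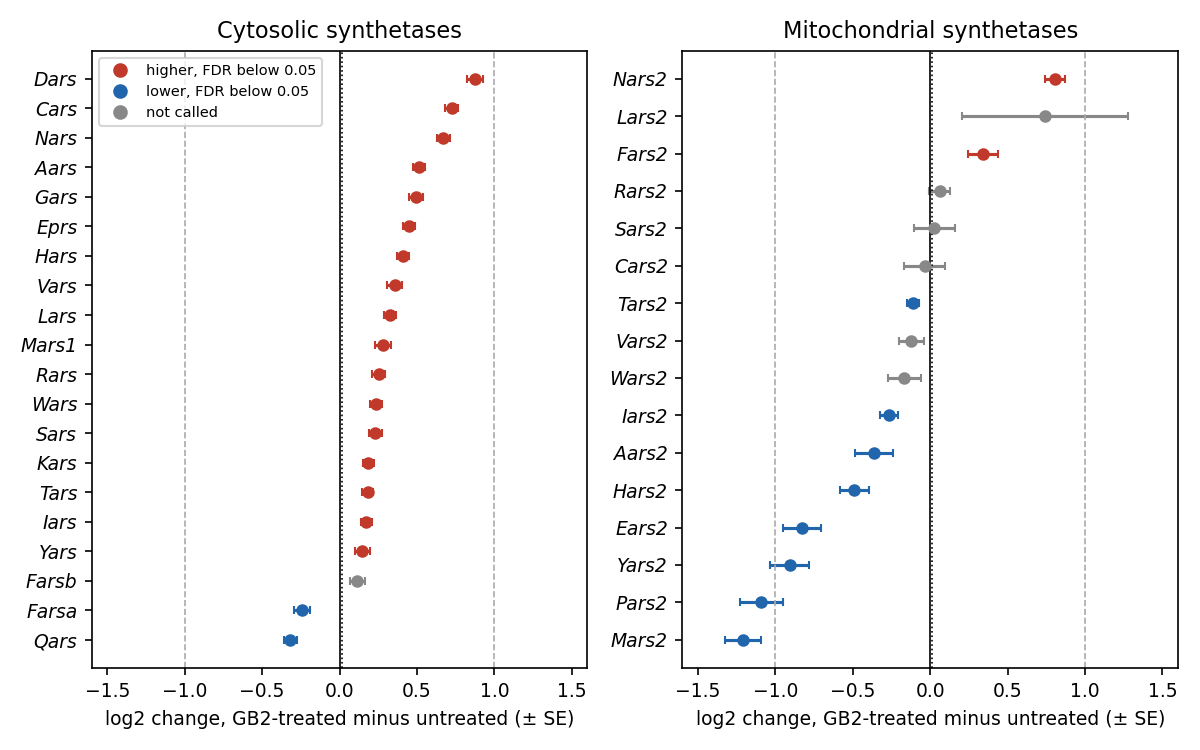
Log2 change of each synthetase after GB2 with its SE from edgeR (3 libraries a group), for cytosolic (left) and mitochondrial genes (right). Red and blue mark genes higher and lower at FDR below 0.05, dashed lines a 2-fold change and the dotted line the median of all genes tested. Cytosolic genes run from -0.32 to 0.88 with 17 red and 2 blue points, and mitochondrial genes from -1.21 to 0.81 with 2 red and 8 blue.

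Within the cytosolic class, the 12 synthetases commonly given as ATF4 targets were all called higher, with a median log2 change of 0.30. The other 8 comprised 5 higher, 2 lower and 1 not called, with a median of 0.22, and they include Dars, the gene with the largest rise. The 8 enzymes of the multi-synthetase complex, a cytosolic assembly that holds several of these enzymes together, were 7 higher and 1 lower with a median of 0.27. The 12 outside it were 10 higher and 1 lower with a median of 0.29. By structural class of the catalytic domain, the 10 enzymes of class I were 9 higher and 1 lower (median 0.27), and the 10 of class II were 8 higher and 1 lower (median 0.32). Over the whole class, 17 of the 20 were higher and 2 lower. By the same rule, 26.8% of all genes tested were higher and 29.6% lower. Among genes of at least 10 FPKM in untreated cells, 24.1% were higher and 49.9% lower. None of these divisions was tested against its counterpart.

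The mitochondrial synthetases moved in both directions. Of the 16, 2 rose, 8 fell and 6 were not called at FDR below 0.05, and the median log2 change was -0.14. The share that fell, 50.0%, compares with 29.6% of all genes tested and with 38.1% of the 6718 genes of 1 to 10 FPKM in untreated cells, the range that holds 14 of them. The same rule called 25.4% of those genes higher. The median of those genes was -0.12, so the class median lay close to that of genes of like level. At the thresholds with a 2-fold change, Mars2 and Pars2 fell (2 of 16, against 7.73% of all genes) and 0 rose by edgeR, DESeq2 or limma, with 2 higher at an unadjusted p below 0.05. Of Mars2 and Pars2, limma on log2(FPKM + 1) called neither at 2-fold, and Mars2 was tested there only without the filter on level. The FPKM of the groups did not overlap for 10 of the 16, with 2 higher and 8 lower. Of all genes tested, 27.4% were apart and higher and 34.5% apart and lower.

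Mars2 (chromosome 1, 55237177 to 55248470, plus strand, mm10), which charges mitochondrial methionine tRNA, also used for initiation, fell most. It was at 1.39, 1.3 and 1.25 FPKM in untreated cells and at 0.60, 0.48 and 0.61 FPKM after GB2, on 362 to 1218 counts. All treated libraries were below all untreated ones (log2 -1.21 ± 0.12, FDR 8.1e-05). Pars2 (chromosome 4, 106651069 to 106655282, plus strand, mm10), the proline enzyme, was at 2.14, 2.04 and 2.22 FPKM and then at 1.03, 1.00 and 0.94 FPKM (log2 -1.09 ± 0.14, FDR 0.00039). Its 191 to 563 counts were the fewest of any member, yet the groups stayed well apart. With GB2-treated replicate 1 alone, Mars2 had a log2 change of -1.05 and Pars2 of -0.97, so only Mars2 still reached 2-fold, by a rule that then called 7.89% of all genes lower.

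Yars2, the tyrosine enzyme, was at 5.17, 4.86 and 4.03 FPKM untreated and at 2.48, 2.22 and 2.69 FPKM after GB2 (log2 -0.91 ± 0.12, FDR 0.00058). Ears2, which charges glutamate, was at 1.67, 1.68 and 1.68 FPKM and then at 0.89, 1.01 and 0.90 FPKM (log2 -0.83 ± 0.12, FDR 0.00086). Both stayed at a similar log2 change in GB2-treated replicate 1 alone, -0.83 for Yars2 and -0.84 for Ears2. Hars2, the histidine enzyme, was at 4.76, 4.63 and 5.31 FPKM and then at 3.73, 3.05 and 3.55 FPKM (log2 -0.49 ± 0.09, FDR 0.0031). It moved less in that library, with a log2 change of -0.31 (FDR 0.049).

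The other 3 decreases were smaller and less stable. Aars2, the alanine enzyme, was at 2.5, 2.02 and 2.26 FPKM untreated and at 1.82, 1.52 and 1.86 FPKM treated (log2 -0.36 ± 0.12, FDR 0.037), and it was called in 6 of 15 alternative settings. Iars2, the isoleucine enzyme, had a log2 change of -0.26 ± 0.06 (FDR 0.0069) and was not called without GB2-treated replicate 3 (FDR 0.055) or with GB2-treated replicate 1 alone (FDR 0.17). Its exons share 22.9% of their bases with Rab3gap2 on the other strand, and the strand setting of the counting is not given in the sources used here. Tars2, the threonine enzyme, had a log2 change of -0.11 ± 0.04 (FDR 0.034) and was called in 5 of 15 settings.

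Nars2 and Fars2 rose against the direction of the other mitochondrial calls. Nars2, the asparagine enzyme, was at 1.92, 2.05 and 1.92 FPKM untreated and at 3.37, 3.39 and 3.43 FPKM after GB2. The treated libraries were tightly grouped and far above the untreated ones (1.75-fold, log2 0.81 ± 0.07, FDR 3.5e-05). Its cytosolic counterpart Nars was among the 3 genes of its class with the largest rises, so both asparagine enzymes rose. Fars2, the phenylalanine enzyme, had a smaller log2 change of 0.34 ± 0.10 (FDR 0.019) and was called in 11 of 15 settings. It was not called without untreated replicate 2 (FDR 0.097), untreated replicate 3 (FDR 0.089) or GB2-treated replicate 1 (FDR 0.052).

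Lars2, the leucine enzyme, was the only member whose GB2-treated libraries disagreed widely. It was at 12.1, 10.1 and 13.2 FPKM in untreated cells and at 12.3, 37.7 and 7.72 FPKM in GB2-treated replicates 1, 2 and 3. The high value rests on 27914 counts, and the coefficient of variation of the treated group was 84.0%, against at most 15.0% for any other member. The log2 change was 0.74 ± 0.53 (FDR 0.27) with it and -0.19 (FDR 0.52) without it. Mitochondrial rRNA, which poly(A) libraries hold only in part, was highest in the same library: mt-Rnr2 was at 926, 1270 and 973 FPKM in the 3 GB2-treated libraries and at 185 to 213 FPKM in untreated cells. Its part in the Lars2 value was not tested. Cars2, Rars2, Sars2, Vars2 and Wars2 were not called, with log2 changes from -0.17 to 0.06 and overlapping groups.

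**Figure D3:**
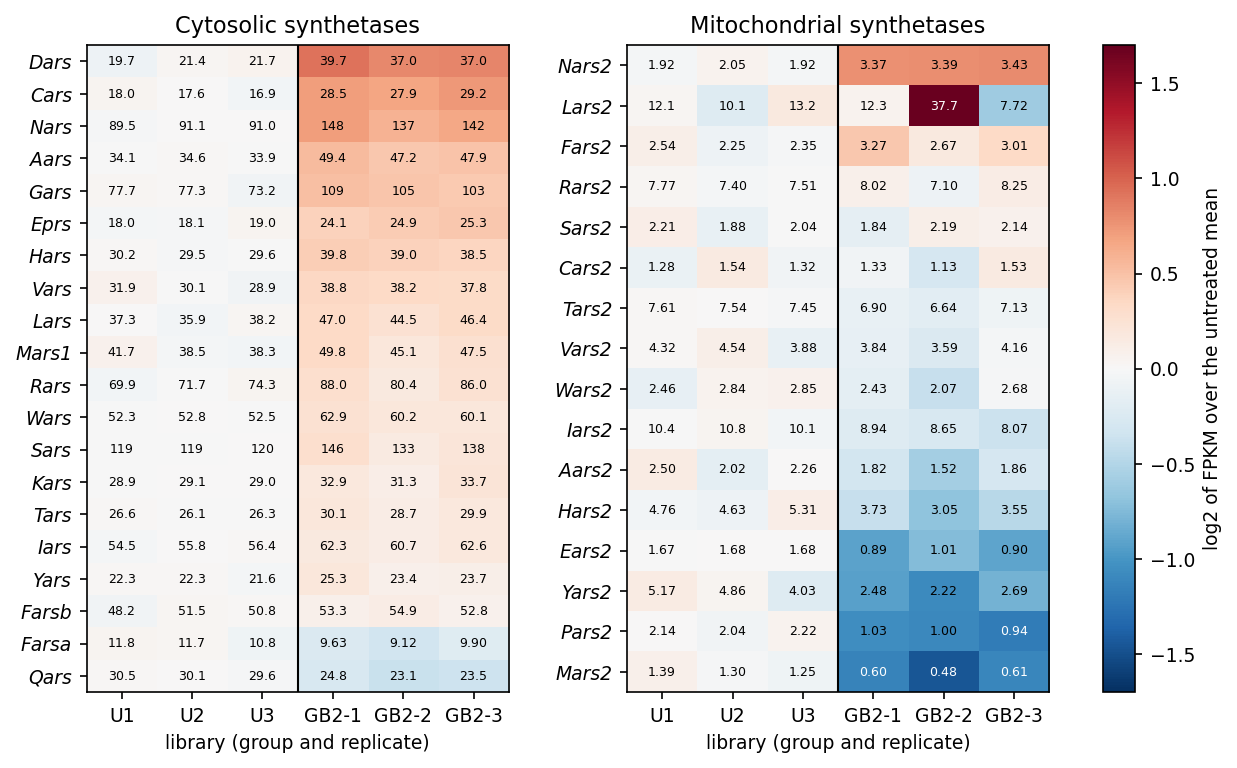
FPKM of every synthetase in each of the 6 libraries (U, untreated; GB2, GB2-treated; replicate number after it), written in the cells, with colour for the log2 of FPKM over the untreated mean. Cytosolic rows are red in all 3 treated libraries except the bottom rows of Qars and Farsa, mitochondrial rows range from red (Nars2) to blue (Mars2), and the dark cell of Lars2 is GB2-treated replicate 2 at 37.7 FPKM.

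The cytosolic rise was at least as large without the libraries that held transcripts of other tissues. Its class median log2 change was 0.27 with all libraries and 0.21 without GB2-treated replicate 1, so its size depended in part on that library. With GB2-treated replicate 1 alone, which held few transcripts of other tissues, 17 cytosolic members were higher and 1 lower at FDR below 0.05, with a median log2 change of 0.39, where 20.3% of all genes were called higher and 23.5% lower. Dars then passed the 2-fold threshold (log2 1.01; 7.85% of all genes were called higher by that rule). Of the mitochondrial members 2 were higher and 5 lower, with a median of -0.08. The 5 were Ears2, Hars2, Mars2, Pars2 and Yars2.

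The balance between the classes was read within each library as the ratio of the FPKM of the cytosolic gene over that of the mitochondrial gene for the same amino acid, which does not depend on scaling between libraries. There were 17 such pairs for 16 amino acids, since Eprs pairs with Ears2 and with Pars2, and both Farsa and Farsb pair with Fars2. The cytosolic gene was the higher in every library for all 17 pairs, with mean untreated ratios from 3.18 to 58.8. After GB2 the ratio was higher with groups apart for 12 pairs, lower with groups apart for 2, and overlapping for 3. Of single genes tested, 27.4% were apart and higher and 34.5% apart and lower. No such share was computed for ratios of other gene pairs, so how far these counts exceed it is not known. The median change in the log2 ratio was 0.44, with a range of -0.58 to 1.54. With 3 libraries against 3, an exact permutation test cannot go below p = 0.1, so these are given as values, and pairs that share Eprs or Fars2 are not independent.

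The ratio shifted most for proline and methionine. Eprs over Pars2 was 8.43, 8.89 and 8.54 in untreated cells and 23.4, 24.9 and 26.9 after GB2, and Mars1 over Mars2 was 30.0, 29.7 and 30.7 and then 83, 93.9 and 77.9. Each treated ratio was above every untreated ratio by a wide margin. Eprs over Ears2, for glutamate, was 10.8, 10.8 and 11.3 and then 27.1, 24.6 and 28.1. The change in the log2 ratio was 1.05 for tyrosine, 0.90 for histidine, 0.88 for alanine and 0.77 for cysteine, all with groups apart. For cysteine the shift came with a rise of Cars and no called change of Cars2, whereas for tyrosine it came with a fall of Yars2 and a small rise of Yars. The ratio was lower for asparagine (-0.14 on the log2 scale, groups apart), where both genes rose, and for Farsa over Fars2 (-0.58, groups apart), where Farsa fell and Fars2 rose. It overlapped for Farsb over Fars2, leucine and serine. The summed cytosolic level over the summed mitochondrial level without Lars2 was 15.1 ± 0.263 (SD, n = 3) untreated and 21.8 ± 0.695 after GB2. With Lars2 it was 12.5 ± 0.275 and 16.1 ± 3.22, and GB2-treated replicate 2, at 12.4, fell among the untreated libraries.

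**Figure D4:**
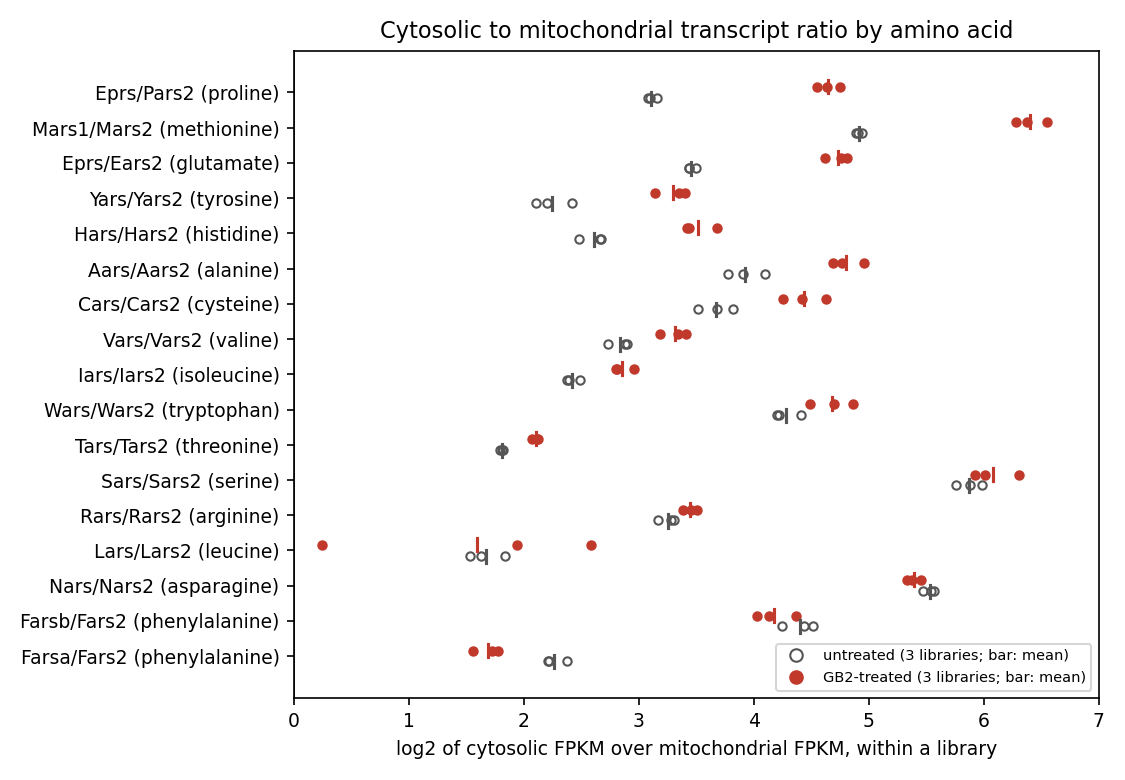
Log2 of cytosolic over mitochondrial FPKM within each library for the 17 pairs, ordered by their change, with untreated libraries as open circles, GB2-treated libraries as red circles and bars at the means of 3 libraries. The groups lie apart and to the right after GB2 for 12 pairs, most for Eprs/Pars2 and Mars1/Mars2, and the 3 treated points of leucine spread widely.

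Hars and Hars2 are head-to-head neighbours on chromosome 18 (mm10). Hars starts at 36783205 on the minus strand and Hars2 at 36783008 on the plus strand, so the start sites lie 197 bases apart and 7.97% of the exonic bases of Hars lie in exons of Hars2. Hars was higher (log2 0.41) and Hars2 lower (log2 -0.49), and the ratio between them went from 6.34, 6.37 and 5.58 to 10.7, 12.8 and 10.8. Eprs and Iars2, which start 33648 bases apart on chromosome 1, moved in opposite directions, with log2 changes of 0.45 and -0.26. Aars and Kars, 978179 bases apart on chromosome 8, both rose (log2 0.51 and 0.19). Vars and Vars2 start 666605 bases apart on chromosome 17, where Vars rose (log2 0.35) and Vars2 was not called (log2 -0.12). Aars shares 14.3% of its exonic bases with Exosc6 on the same strand, so reads there could belong to either gene.

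Among 10 partners of the charging machinery, 3 passed the test as higher (30.0%) and 3 as lower (30.0%), close to the 26.8% and 29.6% of all genes tested. Aimp2, a scaffold of the multi-synthetase complex, was at 8.55, 8.68 and 8.78 FPKM untreated and at 13.9, 13.6 and 14.9 FPKM after GB2 (log2 0.72 ± 0.06, FDR 4.5e-05). Eef1e1, another of its scaffolds, had a log2 change of 0.41 (FDR 0.0090), and the remaining scaffold, Aimp1, was not called (log2 0.14, FDR 0.18). Dtd1, which removes D-amino acids from tRNA, rose (log2 0.31). Ptrh2, a mitochondrial peptidyl-tRNA hydrolase, was the only one past 2-fold, at 4.58, 4.20 and 5.07 FPKM untreated and 2.35, 1.94 and 2.00 FPKM treated (log2 -1.12 ± 0.12, FDR 0.00015). Tarsl2, a threonyl synthetase-like gene (log2 -0.65), and Xpot, the tRNA exporter (log2 -0.15), also fell.

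A list of 15 other genes of mitochondrial translation held 3 that rose (20.0%) and 7 that fell (46.7%), with a median log2 change of -0.25. The test called 26.8% of all genes higher and 29.6% lower, and 25.4% and 38.1% of genes of 1 to 10 FPKM, a range that holds the median level of the list (4.40 FPKM). The largest decreases were those of Gatc (log2 -0.52), a subunit of the transamidase that makes glutamine tRNA in mitochondria, and of Mtres1 (log2 -0.45), a mitochondrial RNA-binding factor. Mrrf, which recycles mitochondrial ribosomes (log2 -0.44), Mtif3, an initiation factor (log2 -0.41), and Mtfmt, which formylates the initiator tRNA that Mars2 charges (log2 -0.34), fell too. Qrsl1, another transamidase subunit, had a log2 change of -0.31.

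Genes other than synthetases that are commonly given as ATF4 or integrated stress response targets had larger changes than the synthetases. Of 37 tested (38 listed), 30 were called higher and 4 lower, and 13 higher and 1 lower at 2-fold. The 4 were Atf5 (log2 -1.56), Slc1a5 (log2 -0.42), Slc38a2 (log2 -0.15) and Slc7a1 (log2 -0.13). Over all genes tested, 26.8% were called higher and 29.6% lower, and 13.4% and 7.73% at 2-fold. The median log2 change of that list was 0.87, against 0.27 for cytosolic synthetases. The largest was Ero1l, an oxidase of the endoplasmic reticulum that other pathways also control, at 47.0 to 48.1 FPKM untreated and 1664 to 1790 FPKM after GB2 (log2 5.19). Ddit4, an inhibitor of mTORC1, had a log2 change of 4.34, and Aldh1l2, a mitochondrial folate enzyme, of 3.71. Stc2, a secreted stress-induced glycoprotein (log2 2.28), and Nupr1, a stress-induced nuclear protein (log2 2.22), rose as well. Vldlr, a lipoprotein receptor (log2 2.57), was at 0.11 FPKM in GB2-treated replicate 1 and at 0.70 and 0.74 FPKM in the libraries that held hepatocyte genes. Asns, which makes asparagine, the amino acid that Nars and Nars2 charge, was at 64.2, 67.3 and 62.4 FPKM untreated and 137, 132 and 131 FPKM treated (log2 1.06 ± 0.05), and was named after its values were seen. Atf4 itself rose by a small margin (log2 0.23 ± 0.05, FDR 0.0051), from 149.5, 151.0 and 146.5 FPKM to 183.5, 163.1 and 172.8 FPKM. Which pathway drove the change of any gene of this list was not tested. In the promoter windows the motif was in 12 of 32 of these genes (37.5%), and in 0 of 12 genes of mitochondrial translation and 0 of 9 charging partners with a window.

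**Figure D5:**
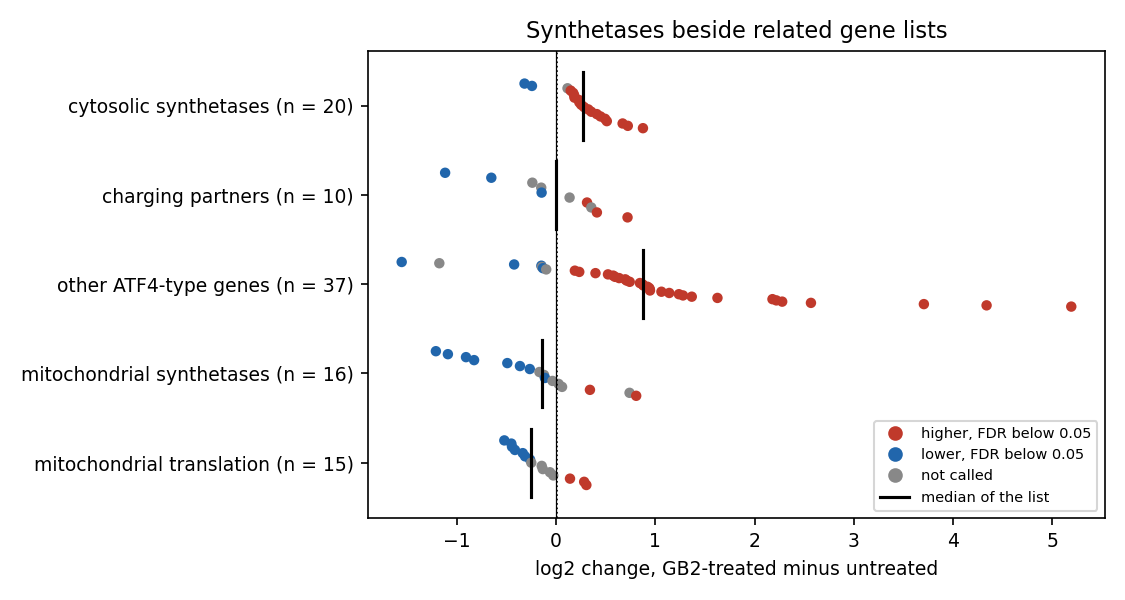
Log2 change after GB2 of the tested genes of each list, 1 point a gene, with red and blue for genes higher and lower at FDR below 0.05 by edgeR, a bar at the median of the list and a dotted line at the median of all genes tested. Cytosolic synthetases cluster just above 0 (median 0.27), other ATF4-type genes reach 5.19 (median 0.87), and mitochondrial synthetases and translation factors have medians below 0.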

How the data were processed

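RNA of RAW264.7 cells, 3 untreated and 3 GB2-treated, was sequenced by the authors from poly(A), strand-marking, paired-end libraries. Of software, the notes on processing that came with the submission list DESeq2 and edgeR without a version, StringTie 2.1.6, HISAT2 2.2.1 and cutadapt 1.9, and as build mm10. What each did, which annotation release was used and how strand was counted is not given in the sources used here. Estimated counts per gene, already whole, and FPKM were deposited by the authors. Low counts pile up at multiples of 4 (952 genes at 4 counts in untreated replicate 1, 397 at 3 and 252 at 5), so counts divided by 4 were an alternative. The deposited fold changes and p-values were not used.

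Counts were tested with edgeR 4.0.16 (R 4.3.3; TMM, filterByExpr, quasi-likelihood F test, no covariate), adjusted by the Benjamini-Hochberg method over all 17124 genes tested. Calls used FDR 0.05, with and without a 2-fold minimum. SE is the absolute log2 change over the root of F. Alternatives were DESeq2 1.42.0 and its size factors, no filter, limma 3.58.1 on log2(FPKM + 1) and log2(FPKM + 0.1) for genes of mean FPKM of at least 1, a replicate block, each library left out, and GB2-treated replicate 1 alone. Values in every library are given for members past 2-fold, for the 10 cytosolic and 8 mitochondrial members of largest change and for the extremes of level, and up to 6 called genes of largest change were named from each other list. Yars, Farsb, Iars2, Tars2, Fars2, Asns, Atf4, Atf5 and Aimp1 were added for their stability or role after their values were seen. So were Slc1a5, Slc38a2 and Slc7a1, as the other ATF4-type genes called lower. Members and lists were chosen with earlier results of these data known. Promoters are from RefSeq. Same-numbered libraries deviated together only slightly and were not treated as pairs in the main fit. Whether they were prepared as pairs is not known.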

Additional observations from a re-analysis of the deposited data

How the results depend on the processing

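Directions of the 19 called cytosolic members held in all 15 alternatives. With GB2-treated replicate 1 alone, 1 cytosolic member was called higher at 2-fold and 1 was lower at FDR alone, with a class median of 0.39, while 1 mitochondrial member was called lower at 2-fold and 5 were lower at FDR alone. On FPKM, limma called 0 mitochondrial members lower at 2-fold with log2(FPKM + 1), filtered or not, and 1 with log2(FPKM + 0.1). Mars2 was below the level filter of both filtered fits. Without that filter limma called 1 mitochondrial member higher at FDR alone, as it did 3693 of 27483 genes. Leaving out 1 library gave 1 to 2 mitochondrial members higher and 5 to 8 lower at FDR alone, the 5 without GB2-treated replicate 3. Of the 17625 to 18771 genes tested in those fits, 3239 to 5901 were higher and 4311 to 5539 lower. Members that changed sign were all uncalled: Cars2 had a log2 change of 0.0063 with DESeq2 size factors, 0.030 with GB2-treated replicate 1 alone, 0.023 with counts divided by 4 and -0.11 to 0.081 with a library left out. Sars2 was at -0.0049 with no filter on low counts, -0.070 with GB2-treated replicate 1 alone and -0.046 to 0.072 with a library left out, and Lars2 at -0.19 to 1.13, the former without GB2-treated replicate 2. The cause was not tested.

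Whether same-numbered libraries were prepared as pairs is not given in the labels. Their correlations of deviations were small, at 0.01 to 0.05, though each library correlated best with its own number. With the replicate block 17 cytosolic members were higher and 2 lower, 2 mitochondrial members were higher and 7 lower, and Tars2 was not called (FDR 0.090). The block called 3893 of 17124 genes higher and 4744 lower by the same rule, FDR alone. Over all genes at 2-fold, calls ranged from 598 (limma, unfiltered) to 3728 (without GB2-treated replicate 1) higher and from 611 to 1530 lower, against 2300 and 1324. Pars2 (191 to 563 counts) and Ears2 after GB2 (308 to 349 counts) have the least depth behind them.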

Other observations

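The kinases that phosphorylate eIF2 alpha, the step upstream of ATF4, had log2 changes of both signs. Eif2ak2 (PKR), which senses double-stranded RNA and is induced by interferon, was at 6.63, 6.03 and 6.97 FPKM untreated and at 9.68, 9.68 and 9.69 FPKM after GB2 (log2 0.58 ± 0.06). Eif2ak1 (HRI), the kinase that responds to heme shortage and mitochondrial stress, was at 12.3, 13.1 and 12.9 FPKM and then at 8.12, 8.39 and 8.53 FPKM (log2 -0.60 ± 0.04), and Eif2ak3 (PERK), the kinase of the endoplasmic reticulum, fell by 0.22 on the log2 scale. Eif2ak4 (GCN2), which senses uncharged tRNA, was not called (log2 -0.14, edgeR FDR 0.055), nor was Eif2s1, which encodes eIF2 alpha itself (log2 0.11, FDR 0.062). Transcript levels say nothing of the activity of a kinase.

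Within the ATF4-type list, Atf5, a transcription factor of the mitochondrial stress response, had the largest decrease, from 55.9, 59.0 and 51.6 FPKM to 19.4, 16.8 and 19.7 FPKM (log2 -1.56 ± 0.07, edgeR FDR 2.0e-06), and was named after its values were seen. Both mitochondrial rRNAs rose: mt-Rnr1 was 5.68-fold and mt-Rnr2 5.48-fold higher after GB2, higher in 3 of 3 treated libraries than in any untreated library.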
